A study of Mus musculus with 3 samples.

Results

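The complement components were examined through 9 genes in islet graft-bearing mouse spleens: C1qa, C1qb, C1qc, C2, C3, C4b, Cfb and Cfp, which encode proteins of the classical and alternative pathways, and C5ar1, which encodes a receptor for the split product of C5. All probes of the array that are not controls and carry 1 of these gene names were taken. The 9 genes were read by 10 probes on 28 spots of each array, out of 55681 probes and 34797 gene names in all. All 10 probes were well above background on every array, so no member was lost to the filter on dim probes.

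Recipients were male C57BL/6 mice (C57BL/6J in the sample labels) made diabetic with streptozotocin, a toxin of beta cells, and grafted with syngeneic islets. All 3 samples carried 25 islets in the spleen and 100 islets under the kidney capsule according to the treatment protocol, whereas the sample characteristics name the capsular graft for Sample 3 alone. Sample 1 was spleen taken on day 0, straight after grafting, Sample 2 was spleen from day 2, and Sample 3 was spleen from day 139, with the graft-bearing kidney taken out on day 100. The samples therefore share the diabetes treatment and the splenic graft, there was no spleen without a graft, and kidney removal cannot be told apart from time in Sample 3. Each condition had 1 array, so the conditions could not be tested. The number of mice behind an array is not given in the sources used here, and the paper gives an age range for its mice as a whole, which is not tied to a sample.

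Complement is a set of plasma and membrane proteins that tag and lyse targets in a cascade. In the classical pathway C1q binds immune complexes or dying cells and leads to the cleavage of C4 and C2, whereas in the alternative pathway C3, factor B and factor D form a convertase that properdin stabilises. Both routes cleave C3 and then C5, and the small fragments act on receptors of myeloid cells. The liver makes most of the plasma proteins, while in the spleen macrophages are a main source of C1q, and fragments of C3 are held by receptors on B cells and on follicular dendritic cells.

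The probe sequences are shown for 5 members because a reader can see from them which stretch of the transcript each value comes from. Each probe of the array is 60 bases long, and the coordinates are those that the scanner files give for mm9. All 10 probes read minus-strand transcripts. The C1qa probe lies at chr4:136452409-136452468, the C1qb probe at chr4:136436578-136436637, the second C3 probe at chr17:57343678-57343737, the Cfb probe at chr17:34993502-34993858 and the Cfp probe at chrX:20502742-20502801. The Cfb probe spans 357 bases of genome, more than its own length, so it crosses an intron. The sequences of these probes are as follows.
C1qa: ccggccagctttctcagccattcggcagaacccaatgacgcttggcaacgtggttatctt
C1qb: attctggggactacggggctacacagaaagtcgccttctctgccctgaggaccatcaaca
C3, second probe: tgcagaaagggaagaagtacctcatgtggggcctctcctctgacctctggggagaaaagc
Cfb: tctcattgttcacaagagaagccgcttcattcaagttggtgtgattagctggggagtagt
Cfp: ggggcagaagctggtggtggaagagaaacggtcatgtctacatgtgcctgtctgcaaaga
The GC content of the 10 member probes ran from 38.3% for C1qc to 55.0% for C1qa, C1qb and the second C3 probe, with a median of 45.0%.

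The 3 C1q genes are neighbours, and their probes lie within 15.9 kilobases of chromosome 4, as the probes of C2 and Cfb lie within 6.1 kilobases of chromosome 17 in the major histocompatibility region. Upstream sequences of 250 bases before the annotated start are shown for C1qb and C1qc because these neighbours had the same order of levels over the 3 samples. They come from RefSeq on GRCm38.p6, which held entries for 5 of the 9 genes (C1qb, C1qc, C3, Cfp and C5ar1), at chr4:136886201-136886450 for C1qb and chr4:136892915-136893164 for C1qc, both on the minus strand. Capitals mark matches to GAGGAA on either strand, a core that the macrophage and B cell factor PU.1 can bind.
C1qb: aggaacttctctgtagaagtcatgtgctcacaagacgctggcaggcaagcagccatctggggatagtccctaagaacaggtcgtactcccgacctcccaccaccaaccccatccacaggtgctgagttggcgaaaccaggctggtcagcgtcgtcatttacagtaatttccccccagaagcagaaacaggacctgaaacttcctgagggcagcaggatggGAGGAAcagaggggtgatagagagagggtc
C1qc: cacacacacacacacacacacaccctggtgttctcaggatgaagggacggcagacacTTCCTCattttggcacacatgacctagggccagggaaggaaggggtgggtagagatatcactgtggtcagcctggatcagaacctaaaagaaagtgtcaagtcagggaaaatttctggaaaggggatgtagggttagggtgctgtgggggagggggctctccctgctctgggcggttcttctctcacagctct
The match lies 30 to 25 bases before the start in C1qb, and 193 to 188 bases before it, on the opposite strand, in C1qc. The same letters were found in 23.3% of 32851 upstream windows of this length, and in 2 of the 5 member windows. The TATA box letters TATAAA, on either strand, were in 0 of the 5 member windows, against 12.4% of all windows. These matches describe the sequence only.

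Signals are quantile-normalized intensities on a linear scale, which can be compared between samples for 1 probe but not between probes. The Z-score sets the log2 ratio of a probe against the SD of that ratio in a window of the 1000 probes closest to it in mean signal. The criteria for a call up were a ratio of 1.5 or more with a Z-score of 2 or more, and those for a call down were a ratio of 0.66 or less with a Z-score of -2 or less. Calls describe a pair of arrays and carry no p-value. The error given beside a log2 ratio is that of the scanner software for the spots, and leaves out the spread between mice and between labelings.

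Of the 9 components, C5ar1 was the only one called in any comparison. For Sample 3 over Sample 1, 0 of the 9 genes were called up, against 2.52% of the 32108 detected probes, and 1 gene, C5ar1, was called down, against 2.21%. For Sample 3 over Sample 2 the counts were 0 up, against 2.39%, and 1 down, again C5ar1, against 1.77%. For Sample 2 over Sample 1 they were 0 up, against 1.91%, and 0 down, against 2.55%. The median log2 ratio of the 9 genes was 0.07, -0.18 and 0.02 in these comparisons, beside -0.02, -0.04 and 0.01 over all detected probes. By the ratio limit alone, Sample 3 over Sample 1 had C2 above 1.5 and C5ar1 below 0.66, where 12.8% and 14.7% of detected probes lay. Sample 3 over Sample 2 had C2, C3 and Cfb above the limit and C5ar1 below it, against 12.4% and 14.4%. Sample 2 over Sample 1 had C1qa above it and 0 genes below it, against 10.1% and 10.4%.

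**Figure D1:**
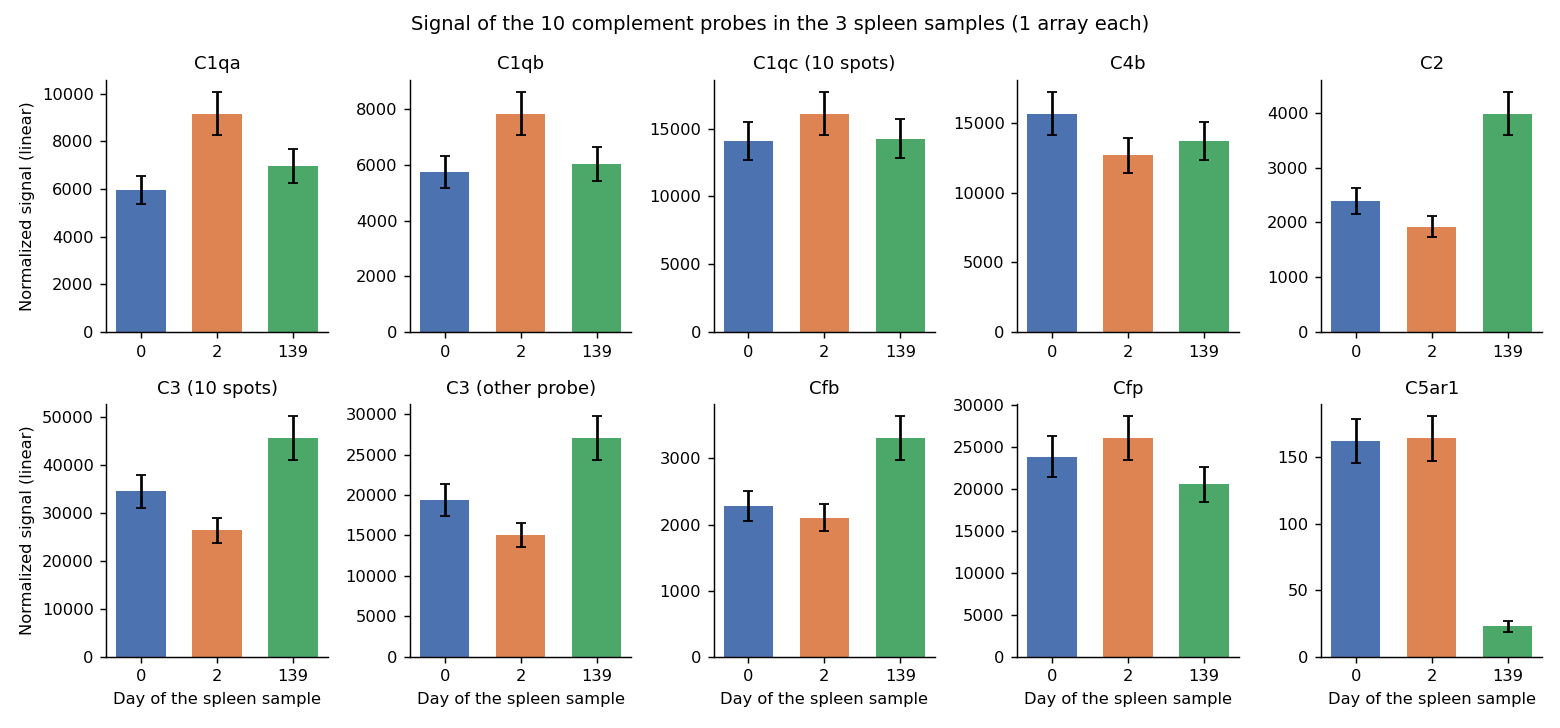
Normalized signal on a linear scale (vertical axis, from 0) of each of the 10 member probes on day 0, day 2 and day 139, with 1 array per bar. Bars on the columns are the scanner software's error of the spots. C5ar1 falls to 22.8 in Sample 3 from 162 and 164, whereas C2, C3 and Cfb are highest in Sample 3 and the 3 C1q genes are highest in Sample 2, C1qc not so under spike-in scaling.

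C1q, the recognition part of the classical pathway, is built from the products of C1qa, C1qb and C1qc, and all 3 genes were brightest in Sample 2, though C1qc was not so when the arrays were scaled to spike-in controls. C1qa had signals of 5969, 9165 and 6969 in Samples 1, 2 and 3. It was 1.54-fold higher in Sample 2 than in Sample 1, a log2 ratio of 0.62 with a scanner error of 0.20 and a Z-score of 1.32. C1qb had 5739, 7833 and 6022, with a log2 ratio of 0.45 and a Z-score of 0.97 for Sample 2 over Sample 1. The increase was thus past the error of the spots for both genes and inside the spread of probes of like brightness.

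C1qc differed least among the 3 genes, with signals of 14078, 16101 and 14257. Its log2 ratio of 0.19 for Sample 2 over Sample 1 was within the scanner error of 0.20. After quantile normalization all 3 genes were back near day 0 by day 139. The log2 ratios of Sample 3 over Sample 1 were 0.22 for C1qa, 0.07 for C1qb and 0.02 for C1qc. The values of C1qb and C1qc for that comparison were within the scanner error. This return depended on the scaling. With spike-in scaling the log2 ratios of the 3 genes were 0.59, 0.43 and 0.40, beside a median of 0.36 over all detected probes. For Sample 3 over Sample 2, C1qa and C1qb were then at -0.06 and -0.04, beside a median of 0.40.

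C1qc was printed as 10 spots on each array, which shows how well a signal repeats within an array. Before normalization the 10 spots of Sample 2 had a median of 17755 and a range of 14342 to 18863, and the 9 spots kept in Sample 1 a median of 14305 and a range of 13858 to 14946. The 10 spots of Sample 3 had a median of 12511 and a range of 12146 to 12834, so the spots of Samples 1 and 3 did not overlap. Before normalization the mean spot of Sample 3 was 0.867 of that of Sample 1, and after it the ratio was 1.01. The order of these samples in C1qc therefore changed with the scaling of the arrays. In Sample 2 a single spot lay over 15% below the median.

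C4 and C2 are cleaved to form the C3 convertase of the classical pathway, and the 2 genes were lower in Sample 2 than in Sample 1 by a like amount. C4b had 15683, 12693 and 13695 in the same order of samples, and the log2 ratios of its 3 comparisons ran from -0.31 to 0.11. It was among the steadiest members, though its probe may also read transcripts of a near-identical C4 copy, which cannot be told apart here. C2, the protease of that convertase, had signals of 2392, 1920 and 3984, with Sample 3 above both others. The log2 ratio of C2 was 0.74 (Z-score 1.26) for Sample 3 over Sample 1 and 1.05 (Z-score 1.79) for Sample 3 over Sample 2, each with a scanner error of 0.20. After C5ar1 this was the widest range of any member, and its Z-scores did not reach 2.

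C3, on which all pathways converge, was read by a pair of probes that gave the same order of samples. The probe printed 10 times had signals of 34420, 26297 and 45495 in Samples 1, 2 and 3. The second probe, whose sequence is given above, had 19389, 15029 and 27025. For Sample 3 over Sample 2 their log2 ratios were 0.79 (Z-score 1.72) and 0.85 (Z-score 1.70). For Sample 3 over Sample 1 they were 0.40 and 0.48, and for Sample 2 over Sample 1 they were -0.39 and -0.37. In each comparison the pair differed by less than the scanner error of 0.20.

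Spots of C3 from the 3 arrays did not overlap before normalization. Sample 1 had a median of 35930 and a range of 34644 to 37267, Sample 2 a median of 29077 and a range of 21540 to 30032, and Sample 3 a median of 42703 and a range of 40760 to 44569. The coefficient of variation was 2.37% in Sample 1 and 2.45% in Sample 3, but 11.7% in Sample 2, where 2 of the 10 spots lay over 15% below the median. With the median of the spots in place of their mean, the log2 ratio of Sample 3 over Sample 2 was 0.73 and that of Sample 2 over Sample 1 was -0.32. Spots of 1 array share the labeling and the mouse material, so their spread says nothing of the conditions.

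**Figure D2:**
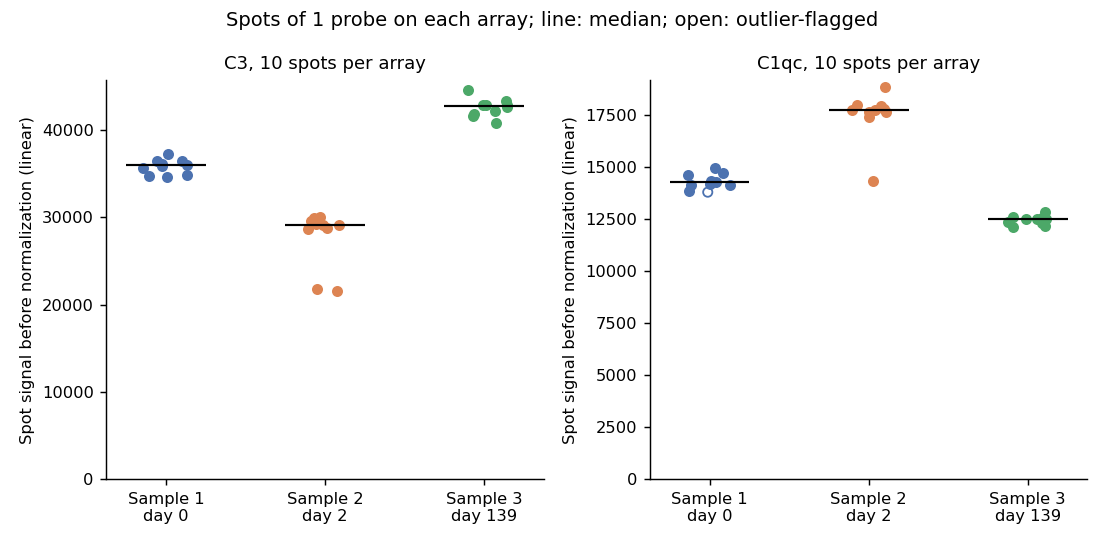
Signal of each single spot before normalization, on a linear axis from 0, for the C3 and C1qc probes printed 10 times on each array. Each point is a spot, the line is the median, and the open point is the spot left out as an outlier. The C3 spots of the 3 arrays do not overlap, and 2 spots of Sample 2 lie apart at 21540 and 21734.

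Factor B, the protease of the alternative convertase, resembled C2, the gene beside it. Cfb had 2273 on day 0, 2106 on day 2 and 3304 on day 139. The log2 ratio was 0.54 (Z-score 0.91) for Sample 3 over Sample 1 and 0.65 (Z-score 1.09) for Sample 3 over Sample 2. Properdin, which stabilises that convertase, moved less and the other way: Cfp had signals of 23842, 26016 and 20538, and log2 ratios of -0.22 and -0.34 for Sample 3 over Samples 1 and 2. C2, C3 and Cfb were all highest in Sample 3 with their lowest value in Sample 2, whereas Cfp had the reverse order, which spike-in scaling did not keep. For Sample 2 over Sample 1 the log2 ratios of Cfb and Cfp were -0.11 and 0.13. Both were within the scanner error of 0.20, so the order of Samples 1 and 2 was not resolved for these genes.

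Scaling to the spike-in controls, labeled RNAs added in equal amounts, moved these values. The 8 spike-in controls of Sample 3 had 65.6% of their Sample 1 signal, and scaling to them shifted the median over all detected probes, on the log2 scale, to 0.36 for Sample 3 over Sample 1 and 0.40 for Sample 3 over Sample 2. Under it C4b and Cfp turned from -0.20 and -0.22 to 0.20 and 0.21 for Sample 3 over Sample 1, both below that shift. For Sample 3 over Sample 2, C1qc and Cfp turned from -0.18 and -0.34 to 0.17 and 0.10, and C4b turned from 0.11 to -0.02 when each array was scaled to its 75th percentile. C2 and C3 passed the criteria for Sample 3 over Sample 2 with log2 ratios of 1.46 and 1.28. Counts of genes higher or lower in Sample 3 are relative to the quantile-normalized arrays. Whether the samples differ in total mRNA was not tested.

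**Figure D3:**
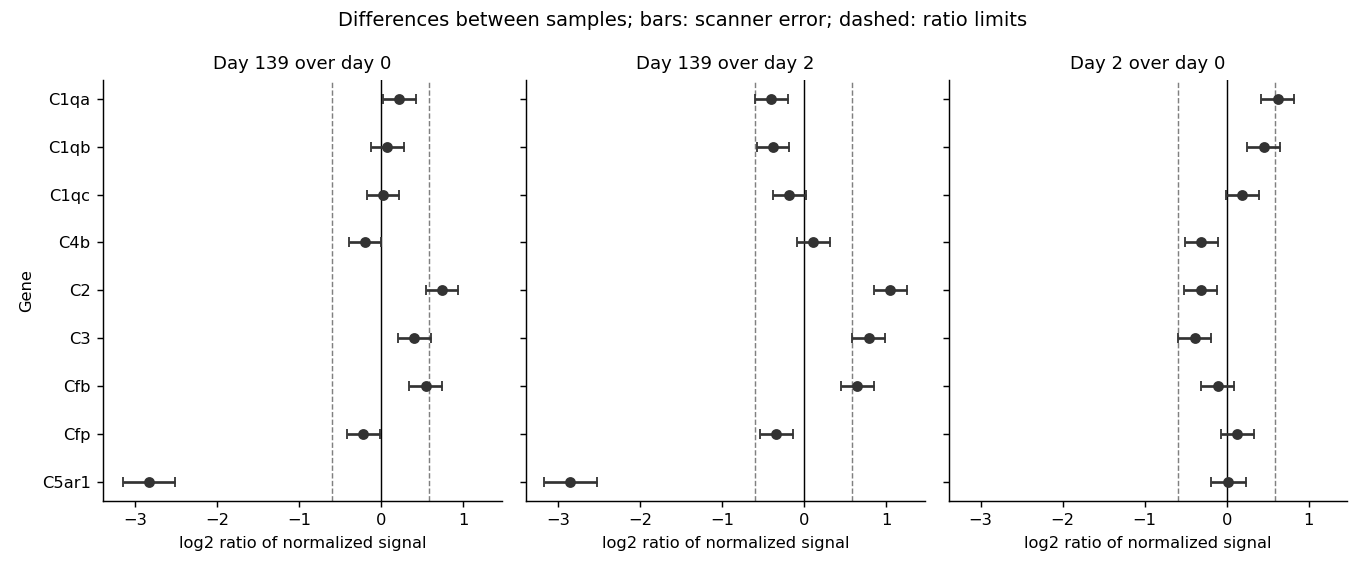
Log2 ratio of normalized signal (horizontal axis) of each of the 9 genes in the 3 comparisons, with the scanner software's error as bars and dashed lines at ratios of 0.66 and 1.5. C5ar1 lies at -2.83 and -2.85 in the comparisons with Sample 3 and at 0.02 for day 2 over day 0, and the other genes lie between -0.40 and 1.05.

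C5ar1 encodes the main receptor of the C5a fragment, by which neutrophils and other myeloid cells are drawn and activated, and it had the largest change of the 9 genes. The signals of Samples 1, 2 and 3 were 162, 164 and 22.8. Samples 1 and 2 were alike within the scanner error, with a log2 ratio of 0.02 and an error of 0.21. Sample 3 was lower, with a log2 ratio of -2.83 (Z-score -4.28) against Sample 1 and of -2.85 (Z-score -4.03) against Sample 2, each with an error of 0.32. These are ratios of 0.14 and 0.139.

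C5ar1 was also the dimmest member, and in Sample 3 it stood close to background. Before normalization its processed signals were 171 with an error of 17.4 in Sample 1, 172 with an error of 17.4 in Sample 2 and 20.1 with an error of 3.93 in Sample 3. The mean brightness of its spot in Sample 3 was 95.9 over a local background of 60, and the lowest normalized signal that counted as well above background on that array was 18.2. The value rests on 1 probe and 1 spot per array. With the normexp background correction the log2 ratio was -1.50 in both comparisons, still past the criteria. C5ar1 also met the criteria in each of the 14 alternatives run. Those on the choice of probe or spots could add nothing with 1 probe and 1 spot, and the deposited values come from the same arrays.

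The other receptors for complement fragments did not share a single pattern. C3ar1, the receptor of C3a, had signals of 37.5, 128 and 11.5 in Samples 1, 2 and 3, where it was not well above background. It was called up for Sample 2 over Sample 1, with a log2 ratio of 1.77 and a Z-score of 2.57. Sample 3 was called down against both, at least 7.03-fold below Sample 2 and at least 2.06-fold below Sample 1, though the latter was no longer called under 3 alternatives that include normexp and spike-in scaling. Gpr77, now named C5ar2 and known as a second receptor of C5a, had 1188, 654 and 420, and its other probe had 704, 376 and 254. The brighter probe had a log2 ratio of -1.50 and a Z-score of -2.61 for Sample 3 over Sample 1, a call lost with spike-in scaling, where the log2 ratio was -1.08, and with 1 SD over all probes.

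Vsig4, the complement receptor of the immunoglobulin family on tissue macrophages, peaked on day 2. Its signals were 145, 1775 and 341 in Samples 1, 2 and 3, with log2 ratios of 3.62 (Z-score 6.77) for Sample 2 over Sample 1 and -2.38 (Z-score -3.76) for Sample 3 over Sample 2. Cr2, the receptor of C3d on B cells and follicular dendritic cells, had 13762, 12898 and 16161, and its other probe had 1491, 1872 and 2646. Neither was called, and the probes differed in direction for Sample 2 over Sample 1. The brightest probe of Itgam, a subunit of complement receptor 3, had 3040, 3035 and 3109. Another Itgam probe had 303, 271 and 117 and was called down in Sample 3 against both others, so the probes of that gene disagreed.

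Among the wider set of complement genes, 64 names were listed by role, of which 55 were on the array and 41 were detected, the 9 members included. Of the 32 others detected, 3 were called up and 2 down for Sample 3 over Sample 1, 2 up and 3 down for Sample 3 over Sample 2, and 2 up and 0 down for Sample 2 over Sample 1. Over all detected probes the shares were 2.52% up and 2.21% down, 2.39% and 1.77%, and 1.91% and 2.55% in these comparisons. Colec11, among those called up in both comparisons with Sample 3, counted as detected through Sample 3 alone. The median log2 ratio of the 32 was 0.31 for Sample 3 over Sample 1, 0.33 for Sample 3 over Sample 2 and -0.07 for Sample 2 over Sample 1, beside -0.02, -0.04 and 0.01 over all detected probes. The 14 names not detected included the mannose-binding lectins Mbl1 and Mbl2, their proteases Masp1 and Masp2, the terminal components C8a, C8b and C9, and the regulators Cfi, C4bp and Vtn.

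Genes of the C1 complex beyond C1q were not called. All 6 detected genes of the complex, C1q included, had log2 ratios above 0 for Sample 3 over Sample 1, with a median of 0.27, but those of C1qb and C1qc were within the scanner error and that of C1qc was -0.01 with normexp. For Sample 3 over Sample 2, 3 of the 6 were higher and 3 lower. C1s, the protease that cleaves C4 and C2, had signals of 2332, 1955 and 3165 in Samples 1, 2 and 3. Serping1, the C1 inhibitor, had 4107, 3843 and 5461. Cfd, factor D, the protease that activates factor B and a product of fat cells, was called up in Sample 3 against both others. It had 166, 92 and 1327, with log2 ratios of 3.00 (Z-score 4.35) for Sample 3 over Sample 1 and 3.85 (Z-score 5.62) for Sample 3 over Sample 2.

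Colec11, a lectin that recognises sugars, was called up in Sample 3, where its signal was 82.3. That was at least 6.36-fold above Sample 1 and at least 5.87-fold above Sample 2. Colec11 was not well above background in either of those samples. With normexp its log2 ratios were 1.05 and 1.21, still called. Membrane regulators were mixed, with 4 of 8 higher and 4 lower in Sample 3 than in Sample 1. Cd55, which dissociates the convertases, had 1575, 1439 and 3061 and was not called. Cd59b, a blocker of the lytic complex, had 63.8, 98.1 and 37.3, and was called down for Sample 3 over Sample 2 with a log2 ratio of -1.39, a call lost with normexp (-0.59), with spike-in scaling (-0.98) and with 1 SD over all probes. Susd4, a membrane regulator, had 24.4, 55.8 and 80.6, and was called up for Sample 3 over Sample 1 with a log2 ratio of 1.73, a call lost with normexp, where it was 0.61. For the 4 detected fluid-phase regulators, all of them brighter on day 139 than on day 0, the median log2 ratio was 0.65.

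**Figure D4:**
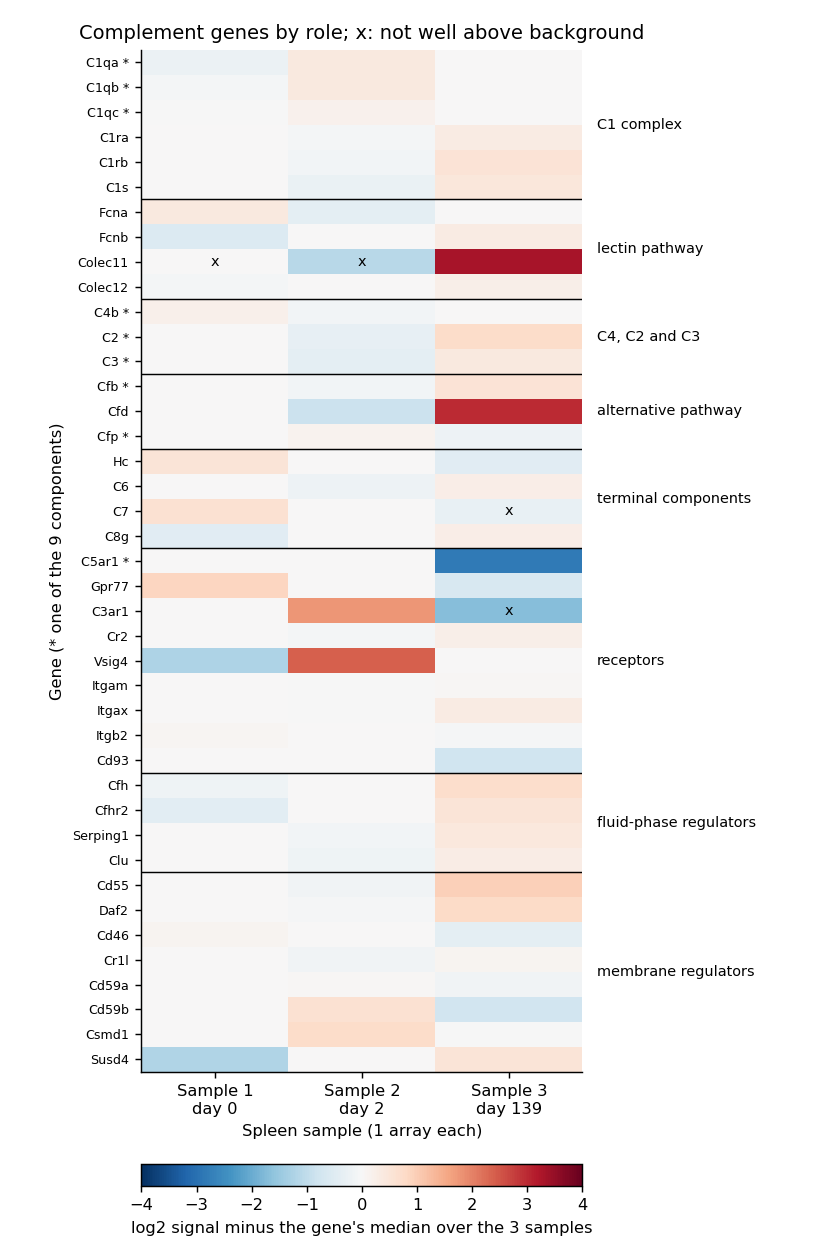
Log2 signal of each of the 41 detected complement genes minus its own median over the 3 samples (colour, from -4 to 4), with genes in rows by role and samples in columns; an x marks a signal not well above background. Colec11 and Cfd stand out as high and C5ar1 and C3ar1 as low in Sample 3, Vsig4 and C3ar1 as high in Sample 2, and most other genes are near 0.

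Genes that mark the cells of the spleen moved between the samples as well, and in bulk tissue fewer cells of a type and less RNA per cell cannot be told apart. The 14 macrophage, 7 B cell and 6 T cell markers on the array were all detected, which does not tell spleen from other tissue that holds these cells. Of the 14 macrophage markers, 6 were higher and 8 lower on day 139 than on day 0, with a median log2 ratio of -0.15, and their summed signal was 169977, 142582 and 142796 in Samples 1, 2 and 3. Marco, a scavenger receptor, changed most, with 22779, 16599 and 9380. For Sample 2 over Sample 1, the comparison in which C1q was higher, 5 of the 14 were higher and 9 lower, with a median of -0.09. In it 2 were called down, Spic and Hmox1, against 2.55% of all detected probes. Of the 14, Emr1, which encodes F4/80, had 2265, 3825 and 3548, Cd5l had 12226, 18795 and 18121, and Spic, a factor of red pulp macrophages, had 13171, 4011 and 9906. The part of macrophage number in the C1q values was not tested.

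Of the 12 neutrophil markers, 5 were called down in Sample 3 against Sample 1, as C5ar1 was. The same number was called down in Sample 2 against Sample 1, where C5ar1 was not called. Over all detected probes 2.21% and 2.55% were called down in these comparisons. For Sample 3 over Sample 2, in which C5ar1 was called down, 0 of the 12 were called, against 2.39% of all detected probes up and 1.77% down. In that comparison 8 were higher and 4 lower, with a median log2 ratio of 0.17. The summed signal of the list was 266993, 119130 and 124988, of which S100a9 alone gave 147009, 51357 and 58589. Cxcr2, a chemokine receptor of neutrophils, had 1443, 242 and 283, and Retnlg had 13195, 2214 and 1055. The list was not uniform, since 6 of the 12 markers were higher in Sample 3 than in Sample 1, Camp with 5295, 7500 and 8696 among them. Of the 6 monocyte markers, 1 was called up and 1 down for Sample 3 over Sample 1, against 2.52% and 2.21% of all detected probes. The 1 called down was F13a1, with 5393, 1833 and 948. Summed signals of the 6 were 12214, 7678 and 8804. For Sample 3 over Sample 2, 0 of the 6 were called, 3 were higher and 3 lower, with a median log2 ratio of 0.10. The part of these cells in the C5ar1 values was not tested.

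Several markers of tissues around the spleen were higher in Sample 3 beside C2, C3, Cfb and Cfd, but not all. The calls of the lists that follow are for Sample 3 over Sample 1, where 2.52% of all detected probes were called up. Of the 5 mesothelial markers, 4 were called up for Sample 3 over Sample 1, Msln with signals of 96.4, 390 and 2283 and Upk3b, the largest, at least 35.5-fold higher. Wt1, the fifth, had 1492, 1443 and 1057, and the summed signals were 1604, 1981 and 4179. Of the 3 adipocyte markers detected, 2 were called up, Adipoq with 21.9, 21.2 and 87 and Cidec, the larger change, at least 4.61-fold higher. Cidec counted as detected through Sample 3 alone, where it was high, so its call adds little to that count. Fabp4 had 1260, 744 and 1195, while Plin1 and Lep were not well above background, and the summed signals were 1285, 774 and 1342. The hepatocyte markers Alb, Apoa1 and Ahsg were not well above background on any array. Fgb, Serpina1a and Apoa2 were detected, with summed signals of 1332, 1531 and 2298. Fgb was at least 10.4-fold higher in Sample 3 than in Sample 1, and counted as detected through Sample 3 alone. All 7 B cell markers were brighter on day 139 than on day 0, 3 of them called, Blk most of all with 79.6, 93.7 and 306. Their median log2 ratio was 1.15, with summed signals of 35887, 35975 and 77144. All 6 T cell markers were higher too, none of them called, with Cd4 at 1455, 1949 and 2910, a median log2 ratio of 0.90 and summed signals of 12256, 16510 and 22664. The part of these cells in the values of C2, C3, Cfb and Cfd was not tested.

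Of the 7 stromal markers, 2 were called up and 1 down for Sample 3 over Sample 1, against 2.52% and 2.21% of all detected probes. Lum, the largest change in that comparison, had 17.3, 37.5 and 180, and Col3a1 had 785, 9030 and 1334. The summed signals were 13245, 53945 and 21592. Some complement genes are induced by interferon or by acute inflammation. The 8 interferon response genes had a median log2 ratio of -0.02 for Sample 3 over Sample 1, Ifit1 moving most with 403, 272 and 336. For Sample 2 over Sample 1 the median was -0.30, with 1 gene higher and 7 lower. For Sample 3 over Sample 2 it was 0.23, with 6 higher and 2 lower. In each comparison 0 of them were called, where 1.91% to 2.52% of all detected probes were called up and 1.77% to 2.55% down. Their summed signals were 41831, 39075 and 37958, of which Isg15 alone gave 30435, 29167 and 26774. Of the 8 acute inflammation genes, 7 were called down for Sample 3 over Sample 1, against 2.21% of all detected probes. Among the 7, Il6 moved most, with 841, 50.9 and 40.4, and Ptgs2 counted as detected through Sample 1 alone. Summed signals of the 8 were 29804, 18278 and 6085. For Sample 2 over Sample 1, 7 of these 8 genes were lower and 1 higher, with a median log2 ratio of -2.08. Of the 8, 6 were called down in that comparison, against 2.55% of all detected probes. Saa3, an acute phase gene and the 1 that was higher, had 7835, 13382 and 403, high on days 0 and 2 and low on day 139. For Sample 3 over Sample 2, 2 of the 8 were called down, against 1.77% of all detected probes. In that comparison 3 were higher and 5 lower, with a median log2 ratio of -0.38. The part of either response in the member values was not tested.

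Genes with the nearest pattern over the 3 samples were sought for the 5 members that spanned at least 0.58 on the log2 scale, among 8065 probes of named genes that were well above background on all arrays and had a mean signal of at least 500. That limit lies above the signals of C5ar1 itself, so dimmer genes of like pattern were not seen. Likeness was the root mean square difference of the log2 distances from the median, over 3 samples only. C5ar1 had 1 probe within 0.1, that of Cplx2, with signals of 14384, 14226 and 2019 and a difference of 0.017, followed by the matrix protease gene Mmp3 with 1055, 1215 and 143 and the acute phase gene Saa1 with 2367, 3481 and 272. The other patterns were common. C1qa had 141 probes within 0.1, the nearest being Dcaf12, Cyb5r3 and Lpl, and C2 had 24, with Itgal, Bcar3 and Samd9l nearest. C3 had 79, led by Sema7a, Bmi1 and March7, and Cfb had 218, led by Spin1, Trim12a and Relb. Among the members themselves C1qa and C1qb were the closest pair, with a difference of 0.09, followed by C1qb and C1qc with 0.12. C1qc and Cfp, which lie on chromosomes 4 and X, differed by 0.13, less than the neighbours C2 and Cfb with 0.16. C3 and Cfb differed by 0.18.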

How the data were processed

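Total RNA of 3 spleen samples was labeled with Cy3 and hybridized to SurePrint G3 Mouse 8x60K arrays, 1 array per sample and all on 1 slide. The authors deposited the scanner output, which holds the intensity of each spot on a linear scale after background subtraction and detrending by Feature Extraction 10.7.1.1 per the file headers (the submitters' processing notes name 9.5.1.1). A deposited table of processed intensity values, already quantile normalized, served as an alternative; its values differed from those used here by at most 0.013 on the log2 scale over the member probes. RNA and labeling kits differ between the labels and the methods.

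Control and outlier-flagged spots were left out, spots of a probe were averaged, and quantile normalization was run on 55679 probes, followed by a floor of 1 and log2, as the study's methods describe the normalization and the criteria. Detected probes (32108) were well above background on at least 1 array, and the share of all probes well above background was 54.4%, 53.8% and 50.4% in Samples 1, 2 and 3. The methods do not say how the Z-score was computed, and the window of 1000 probes was chosen here. Saturated gene spots numbered 0. With 3 arrays and no replicates, their number limits the precision, and no p-value was computed. A change against a signal not well above background is a bound, against the higher of that signal and the lowest one well above background on that array. Gene names are those of the array.

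Named are the 9 members with every probe, other listed complement genes called in a comparison or with a ratio of at least 2 or at most 0.5, C3ar1, Cr2, Vsig4, Itgam and Cfd, the 3 nearest patterns of each member that varied, and the largest change of each marker list for Sample 3 over Sample 1. C1s, Serping1, Emr1, Cd5l, Spic and the other markers named were chosen after their values were seen. Members, lists and alternatives were chosen with earlier results of these data known. The calls were checked on simulated data. Alternatives covered background correction (normexp, offset 50, limma 3.58.1 in R 4.3.3), scaling, floor, filters, the spread in the Z-score, the ratio limit and the choice of probe or spots. Python 3.11.15, numpy 2.4.6, pandas 2.3.3 and matplotlib 3.10.9 were used.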

Additional observations from a re-analysis of the deposited data

How the results depend on the processing

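Of 198 group results under an alternative, 178 stayed close to the reported value (a count within 1.5 times of it, a median within the scanner error) and 20 moved. Of 792 single-gene results 763 kept the reported call or lack of one, 9 lost a call, 20 gained a call and 0 reversed a call. Under spike-in scaling the wider genes called were 7 up and 0 down for Sample 3 over Sample 1, 4 up for Sample 3 over Sample 2 and 1 down for Sample 2 over Sample 1, the members called up for Sample 3 over Sample 2 were 2, and the members' medians were 0.43 and 0.17 for Sample 3 over Samples 1 and 2, as the whole array shifted. With the scaled median absolute deviation, a smaller spread, members called up were 1 (C2), 2 (C2 and C3) and 1 (C1qa) for Sample 3 over Sample 1, Sample 3 over Sample 2 and Sample 2 over Sample 1, and wider genes 7 up in the first and 3 down in the last. Wider genes called down for Sample 3 over Sample 1 numbered 1 with normexp, with a raised floor, with detection on all 3 arrays (fewer genes) and with 1 SD over all probes. Wider genes called down for Sample 2 over Sample 1 numbered 1 with normexp, with no filter and with a window of 250 probes. With detection on all 3 arrays 1 wider gene was called up for Sample 3 over Sample 2. The share of all detected probes called under each alternative is not given here, so these counts cannot be set against it. Unless stated, the cause was not tested. The medians over spots were chosen after seeing the data. No paired analysis was possible because each condition had 1 array. Dim probes such as those of C5ar1 in Sample 3 limit the size of a ratio.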
